A study of Mus musculus with 10 samples.

Results

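The nuclear-encoded genes of the mitochondrial respiratory chain were followed over every library of a study of mouse fetal oocytes. Members were the protein-coding genes whose symbols begin with Nduf (complex I), Sdha, Sdhb, Sdhc or Sdhd (complex II), Uqcr or the single symbol Cyc1 (complex III), Cox4 to Cox8 (complex IV) or Atp5 (complex V), with symbols ending in -ps left out. Ndufa4 and its isoform gene Ndufa4l2 were counted with complex IV, where the Ndufa4 protein is now placed. This gave 99 gene models of the 55536 in the count table, 44 for complex I, 8 for complex II, 9 for complex III, 20 for complex IV and 18 for complex V, and 12 of them encode assembly factors rather than subunits. A further 13 models with such symbols were left out as pseudogenes or non-coding, Cox6c2 and Ndufab1-ps among them. Expression was high enough for testing in 96 members. The others were Cox6a2, Cox8b and a duplicate model of Atp5o that had no reads.

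Germ cells came from female embryos at stage E14.5 of strain C57BL/6. Both parents carried the Taf4b-deficiency mutation on a single allele and the Oct4-EGFP transgene (B6;129S4-Pou5f1tm2Jae/J) on both, so that every library shares the reporter. Live GFP+ cells were taken by fluorescence-activated sorting and their RNA was sequenced in bulk from 4 Taf4b-deficient, 4 Taf4b-heterozygous and 2 Taf4b-wildtype libraries. The labels call the first genotype infertile and the other two fertile, and date litters to January 29 (deficient replicates 1 and 2, heterozygous replicate 4, wildtype replicate 1), March 1 (deficient replicate 3, wildtype replicate 2) and March 7 (deficient replicate 4, heterozygous replicates 1 to 3). They do not say whether libraries are separate animals, so the p-values given here reflect only how far these samples scatter, some of which may be technical. In bulk RNA, fewer cells of a type and less RNA per cell cannot be told apart.

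Electrons from NADH enter the chain at complex I and those from succinate at complex II. Both pass them through ubiquinone to complex III, then by cytochrome c to complex IV, which reduces oxygen, and complex V (ATP synthase) makes ATP from the proton gradient that complexes I, III and IV build. Complex II is made of nuclear-encoded subunits alone, while the other complexes also hold subunits encoded by mitochondrial DNA. The Taf4b protein is a subunit of TFIID, which starts the assembly of the transcription machinery at promoters, and is found mainly in gonads.

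Library totals ran from 28949924 to 44166320 reads. Taf4b was measured at 56.1 to 64.9 CPM (read counts divided by library size, with TMM scaling) in the deficient libraries and at 144 to 234 CPM in the 6 fertile ones, with no overlap. The germ cell markers Dazl, Ddx4, Pou5f1, Dppa5a, Mael and Sycp3 summed to 3732 to 4930 CPM and the 8 pregranulosa and somatic gonad markers to 13.4 to 32.8 CPM. Meiotic stage was read from a score: the mean log2 CPM of 24 recombination genes (such as Spo11, Dmc1 and Sycp1) minus that of 19 pluripotency and early germ cell genes (such as Nanog, Sox2 and Dppa5a). It holds no respiratory chain gene, but one of its genes, Pou5f1, is the gene whose reporter was used for sorting. Here and below, values of single libraries are listed in the order of the replicate number. Scores were 0.31, 1.304, -1.64 and -0.20 in the deficient, -1.65, 2.20, 1.90 and 1.82 in the heterozygous and 0.063 and 0.47 in the wildtype libraries. Heterozygous replicate 1 and deficient replicate 3 thus stood lowest, and heterozygous replicate 1 stood apart from the rest of its own group.

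Respiratory chain transcripts were abundant in all libraries. The members summed to 42136 to 49547 TPM, or 4.21% to 4.95% of all TPM, a length-scaled measure that allows genes to be set side by side. The 3 highest sums were those of deficient replicates 2 and 4 and heterozygous replicate 3 (49547, 46672 and 49523 TPM), against 42136 to 45725 TPM in the other libraries. These 3 libraries also held few reads of the short RNA gene model Gm23935, at 454, 141 and 87.4 CPM against 4146 to 5068 CPM, and the part of this in the sums was not tested. Median sums over the libraries were 15247 TPM for complex I, 1662 TPM for complex II, 5569 TPM for complex III, 10095 TPM for complex IV and 12779 TPM for complex V. Of the 96 tested members, 80 had a median of at least 100 TPM and 4 a median under 10 TPM. The 12 assembly factors had a median level of 48.8 TPM and the 84 subunit genes one of 437 TPM.

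**Figure D1:**
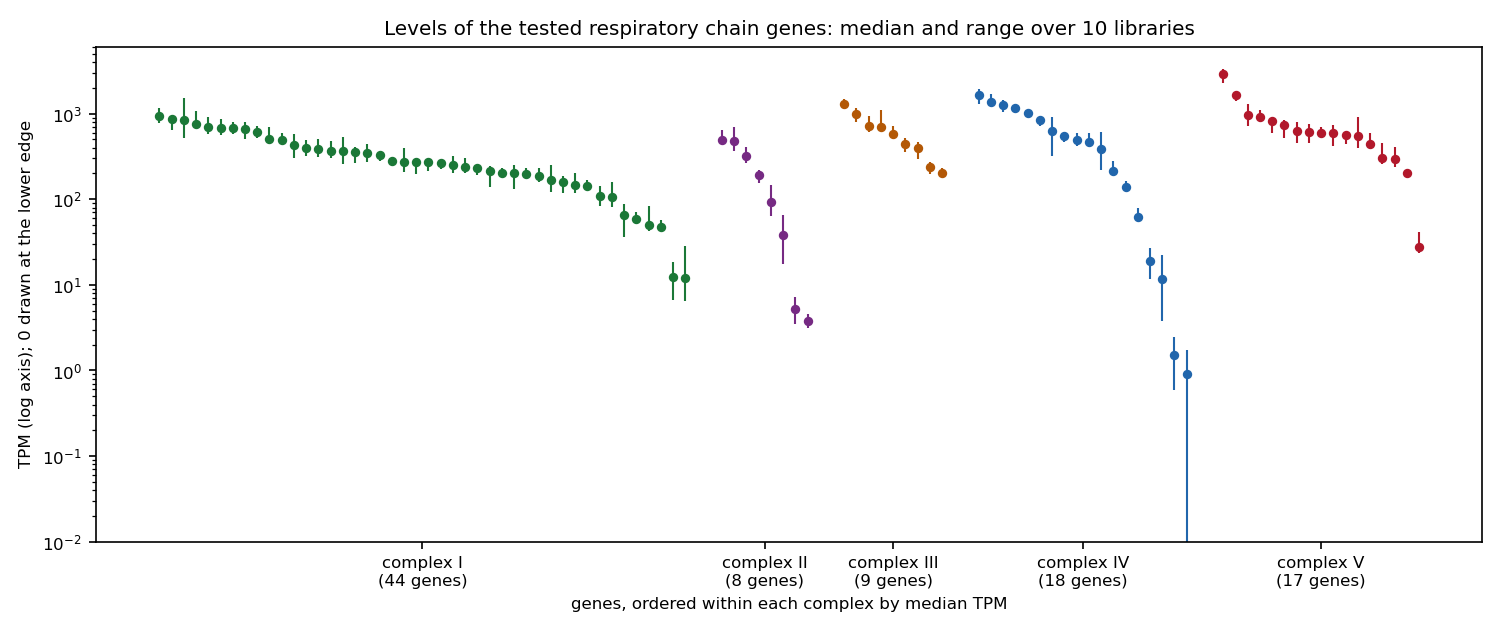
Median TPM (points) and range over the 10 libraries (lines) of the 96 tested members on a log axis, ordered within each complex. Most subunit genes lie between 100 and 1000 TPM, and the low end of complexes II and IV holds the assembly factor Sdhaf3 and the isoforms Ndufa4l2 and Cox4i2.

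In complex I the highest members were the accessory subunit genes Ndufb9, at a median of 932 TPM, and Ndufa7, at 871 TPM. The lowest were the assembly factor genes Ndufaf4, at 11.96 TPM (range 6.41 to 28.4), and Ndufaf3, at 12.4 TPM (range 6.68 to 18.7), whose ranges overlapped. Of the core subunits, Ndufs7 had a median of 676 TPM, Ndufv2 433 TPM, Ndufs1 363 TPM, Ndufs3 271 TPM, Ndufv1 238 TPM and Ndufs8 202 TPM. Their ranges over libraries overlapped between neighbours in this order, except that Ndufs7 (584 to 798 TPM) lay above the rest of those named.

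The complex II genes were led by the flavoprotein gene Sdha (492 TPM, range 447 to 640) and the iron-sulfur subunit gene Sdhb (481 TPM, range 369.5 to 696), whose ranges overlapped. The membrane anchors were lower, at 321 TPM for Sdhd and 92.2 TPM for Sdhc, and the assembly factor Sdhaf3 was lowest at 3.81 TPM. In complex III, Uqcrb (1301 TPM) and Uqcr11 (983 TPM), both small accessory subunits, stood above the redox subunits Cyc1 (cytochrome c1, 716 TPM) and Uqcrfs1 (the Rieske iron-sulfur protein, 238 TPM). The core proteins Uqcrc1 and Uqcrc2 had medians of 697 and 391.9 TPM, and Uqcrq was lowest in complex III at 204 TPM. In complex IV, Cox4i1 (1661 TPM) and Cox5a (1374 TPM) led. In complex V the catalytic beta subunit gene Atp5b had the highest level of any member, 2927 TPM, followed in that complex by the c ring gene Atp5g3 at 1658 TPM. The alpha subunit gene Atp5a1 was at 566 TPM and Atp5s, which encodes coupling factor B, was lowest at 27.6 TPM.

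Several subunits are encoded by paired or triple isoform genes, and the libraries held mainly the widely expressed forms. Cox4i1 made up 99.9% to 100% of the TPM it shares with Cox4i2, Cox6a1 at least 99.95% of that shared with the muscle form Cox6a2, and Ndufa4 99.5% to 99.9% of that shared with Ndufa4l2. The testis form Cox6b2 was a larger minority, at 9.18% to 12.4% of the sum with Cox6b1. Cox7a1, known as the heart and muscle form, took 17.0% to 22.1% of the sum with Cox7a2 and Cox7a2l, at a median of 215 TPM. Cox7a2l was classed here as a supercomplex factor, so this is not a share among subunit isoforms alone. In the c ring, whose proteins turn as protons pass, Atp5g3 supplied 49.7% to 52.3% of the TPM, Atp5g1 24.2% to 32.9% and Atp5g2 16.4% to 23.5%. The Atp5g2 share was 23.4% and 23.5% in the wildtype libraries, above all the others (16.4% to 20.7%).

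The members varied little between libraries. Their median coefficient of variation of CPM was 11.6% over the 90 with a mean of at least 10 CPM. It was 18.2% over all 9402 genes with at least that level, and the sets were not matched for expression above it. The steadiest were Cox5b (6.17%), Atp5j2 (6.25%) and Atp5j (6.71%). The most variable above that level were Cox8a (38.5%), Cox7b (36.8%), Ndufa1 (32.8%), Ndufaf4 (28.6%) and Ndufaf6 (28.2%), which recur below in the account of meiotic stage. Cox4i2 varied most of all (54.3%), at a median of 0.441 CPM.

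The first question of the design was whether these genes differ in cells that lack Taf4b. Averaged over the 96 members, log2 CPM was 7.12, 7.22, 7.03 and 7.08 in the deficient, 6.95, 6.95, 7.05 and 6.89 in the heterozygous and 7.14 and 6.96 in the wildtype libraries. Group means were 7.11 ± 0.0802 (SD, n = 4), 6.96 ± 0.0685 (SD, n = 4) and 7.05 ± 0.127 (SD, n = 2). Deficient replicate 3, the lowest of its group, lay below heterozygous replicate 3, and the wildtype pair spanned most of both ranges. Within a litter date the deficient mean exceeded the fertile mean by 0.155 for January 29 (2 against 2 libraries), 0.0723 for March 1 (1 against 1) and 0.0914 for March 7 (1 against 3).

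**Figure D2:**
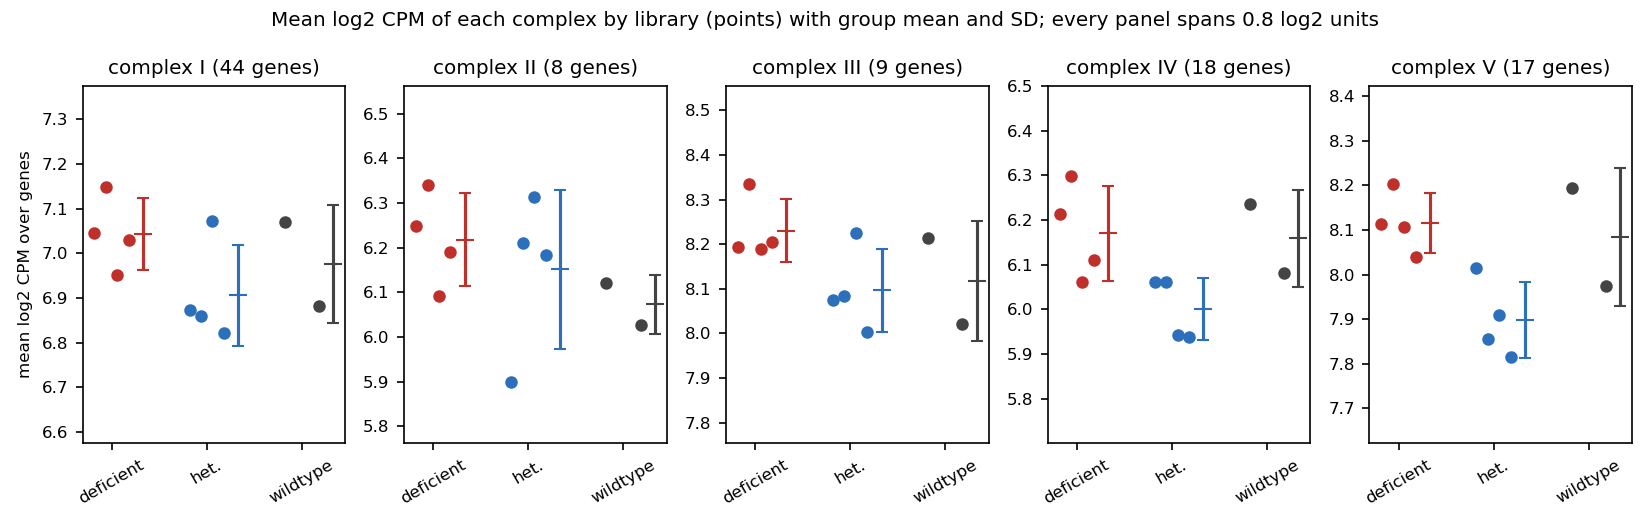
Mean log2 CPM over the tested genes of each complex, 1 point per library, with the group mean and SD as bars. In complex V the deficient libraries (8.04 to 8.20) sit above the heterozygous ones (7.82 to 8.01), while the wildtype pair (7.97 and 8.19) overlaps both; in the other complexes the deficient and heterozygous libraries overlap.

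Complex V showed the clearest separation of means. Its 17 tested genes averaged 8.11, 8.20, 8.11 and 8.04 log2 CPM in the deficient and 8.01, 7.86, 7.91 and 7.82 in the heterozygous libraries, without overlap, and 8.19 and 7.97 in the wildtype pair. Complex I averaged 7.04 ± 0.0817 in deficient, 6.91 ± 0.113 in heterozygous and 6.98 ± 0.133 in wildtype libraries (SD, n = 4, 4 and 2). Complex I, II, III and IV means each differed between deficient and heterozygous libraries by less than the sum of their SDs. For complexes II, III and IV they were 6.22 ± 0.104 against 6.15 ± 0.178, 8.23 ± 0.0705 against 8.10 ± 0.0928, and 6.17 ± 0.106 against 6.00 ± 0.0696.

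In the deficient against heterozygous comparison no member passed edgeR's quasi-likelihood test at an adjusted p under 0.05, where 0.0148% of all tested genes did. At an unadjusted p under 0.05 there were 16 of 96 members, 15 of them higher in deficient libraries, against 11.9% of all tested genes (4.81% higher). The fold change was above 0 in 79 of 96 members, with a median log2 fold change of 0.15, against 44.9% of all tested genes and a median of -0.054. By complex, the share above 0 was 35 of 44 in complex I (median 0.16), 6 of 8 in complex II (0.090), 8 of 9 in complex III (0.12), 14 of 18 in complex IV (0.18) and 16 of 17 in complex V (0.23). On the deposited TPM scale, 54 of 96 members were above 0, and the share of all genes above 0 was not computed on that scale. Mean summed TPM of complexes I, II and III was lower in deficient libraries (15178, 1677 and 5710) than in heterozygous ones (15443, 1738 and 5737). These differences were smaller than the SD of either group. For complexes IV and V the deficient mean was higher (10361 and 13279 against 10195 and 12107). DESeq2 called 1 member, Ndufs4, and limma on voom or TPM values called none.

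**Figure D3:**
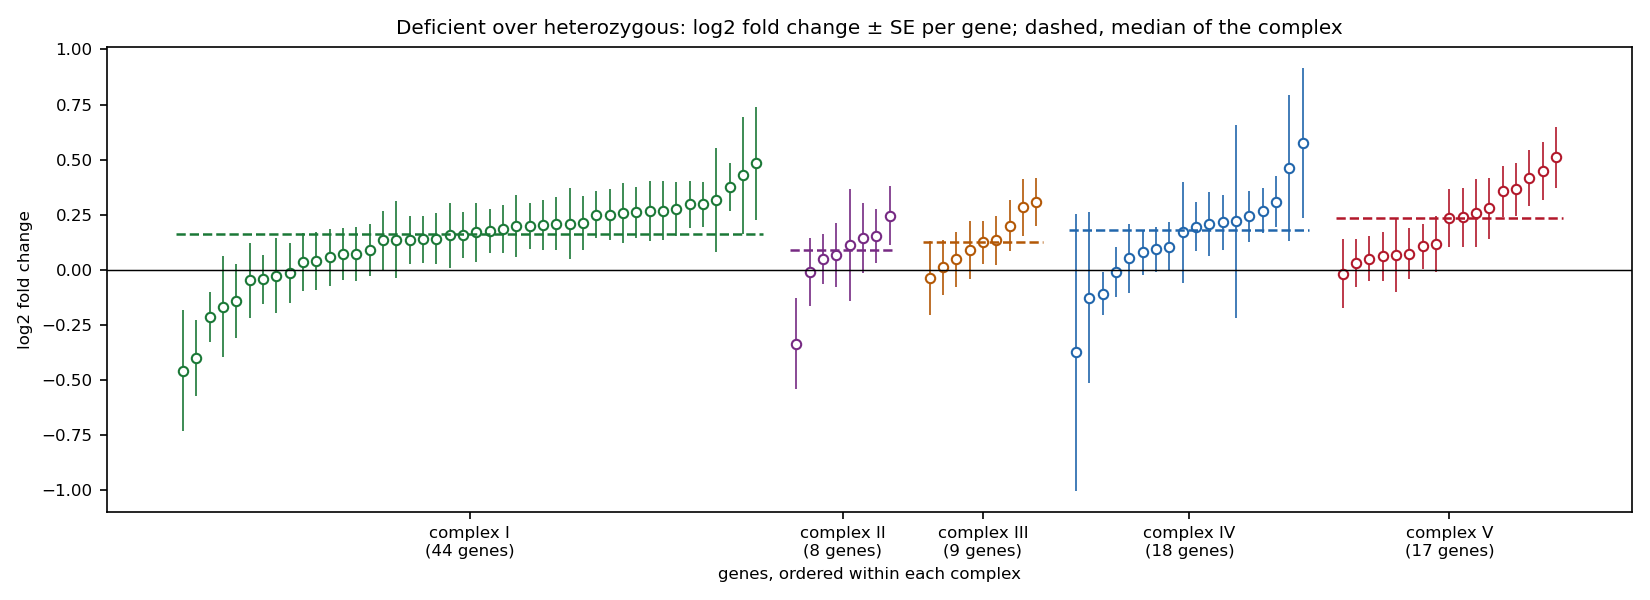
Log2 fold change of deficient over heterozygous libraries with its SE for each tested member, ordered within complexes, with the median of each complex dashed. All points are open because none passed at an adjusted p under 0.05; the medians run from 0.090 in complex II to 0.23 in complex V.

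The member with the smallest p was Atp5g1, on chromosome 11 (GRCm38, chr11:96068852-96075670, minus strand), which encodes a form of the c ring subunit. It was at 514, 537, 589 and 477 CPM in the deficient, 463, 326, 368 and 329 CPM in the heterozygous and 509 and 430.1 CPM in the wildtype libraries. All deficient libraries lay above all heterozygous ones, and the wildtype pair fell among them. The log2 fold change of deficient over heterozygous libraries was 0.51 (SE 0.14, edgeR adjusted p = 0.336). Atp5g1 has 4 near-identical pseudogene copies, to which reads equal to 23.9% of its own were assigned. With these copies added, the deficient libraries averaged 657 ± 56.3 CPM and the heterozygous ones 458 ± 83.1 CPM (SD, n = 4 each).

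Atp5c1 encodes the gamma subunit, the shaft of the ATP synthase motor. It was at 595, 630.3, 655 and 553 CPM in the deficient, 550.0, 388, 449 and 399 CPM in the heterozygous and 620.1 and 541 CPM in the wildtype libraries. The lowest deficient library, replicate 4, was just above heterozygous replicate 1, and the log2 fold change was 0.45 (SE 0.13, edgeR adjusted p = 0.346). The other c ring genes were also higher on average, Atp5g3 at a log2 fold change of 0.37 (SE 0.12) and Atp5g2 at 0.26 (SE 0.15), neither passing the test.

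Ndufs4 encodes an accessory subunit of complex I whose loss in mice is used as a model of Leigh syndrome. It was at 186, 206, 185 and 174 CPM in the deficient, 166, 136, 137 and 139.7 CPM in the heterozygous and 177 and 174 CPM in the wildtype libraries. Deficient libraries lay above the heterozygous ones but not above both wildtype libraries. The log2 fold change over heterozygous libraries was 0.38 (SE 0.11), with an adjusted p of 0.346 in edgeR and 0.0437 in DESeq2, where 1.1% of genes were called. No pseudogene copy of Ndufs4 was found by the criteria used.

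Deficient and heterozygous libraries did not overlap for 12 members, all higher in deficient libraries (12.5% of 96, against 3.31% of all tested genes in that direction). They were 4 genes of ATP synthase (Atp5c1, Atp5g1, Atp5l and Atp5o), Cox4i1 and Cox5a of complex IV, Uqcrc2 of complex III, and Ndufa11, Ndufa13, Ndufb5, Ndufs3 and Ndufs4 of complex I. No member was lower without overlap, against 2.66% of all tested genes. Reads equal to 28.5% of those of Atp5l and 8.84% of those of Atp5o lay in pseudogene copies. The members furthest below 0 were Ndufa1 at -0.46 (SE 0.27) and Ndufaf8 at -0.40, both of which return with meiotic stage.

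Some other quantities moved with this comparison. The 9 blood and macrophage markers summed to 14.9 to 25.8 CPM in deficient, 6.14 to 12.8 CPM in heterozygous and 13.0 to 16.4 CPM in wildtype libraries, with none of them at 0 in any library, and their part in the result was not tested. The stage score had a mean of -0.057 ± 1.23 over the deficient and 1.07 ± 1.82 over the heterozygous libraries (SD, n = 4 each). With the score as a covariate, 86 of 96 members were above 0, 20 had an unadjusted p under 0.05 and none was called. The matching shares of all tested genes in that fit were not computed, so these counts are not read as an excess. Without heterozygous replicate 1, 7 members were called, all higher in deficient libraries (Atp5c1, Atp5g1, Atp5g3, Atp5o, Cox7b, Cox8a and Ndufs4), where 2.6% of all genes were called. In that setting the heterozygous scores (1.82 to 2.20) all lay above the highest deficient score (1.304), so genotype and stage cannot be told apart. Cox7b and Cox8a are also the members that fell most with the score.

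Against the wildtype libraries no member was called by edgeR, DESeq2 or limma, as for all genes in edgeR (0%). None had an unadjusted edgeR p under 0.05, against 3.66% of all tested genes. The fold change was above 0 in 75 of 96 members, at a median of 0.070, and in 50.6% of all genes, at a median of 0.0046. Without wildtype replicate 1 the median was 0.17, and without wildtype replicate 2 it was -0.022. The deficient libraries are the same ones as in the comparison with heterozygous libraries, so the values of both comparisons are not independent.

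Uqcrb, a subunit of complex III that binds ubiquinone, was the member with the smallest p against wildtype libraries. It was at 375, 403, 370.4 and 388 CPM in the deficient, 367, 331, 371 and 340.3 CPM in the heterozygous and 347 and 301 CPM in the wildtype libraries. All deficient libraries lay above both wildtype ones, and the log2 fold change was 0.25 (SE 0.12, edgeR adjusted p = 1.00). Ndufb10, of the membrane arm of complex I, followed with 74.1, 82.3, 67.3 and 75.4 CPM in the deficient libraries and 63.7 and 52.1 CPM in the wildtype ones (log2 fold change 0.37, SE 0.20). Ndufb7, of the same arm, went the other way, at 128, 121, 129 and 143 CPM against 168 and 143 CPM (-0.26, SE 0.14). Its deficient libraries lay below both wildtype libraries, although replicate 4 and wildtype replicate 2 differed by under 1 CPM. In all, 5 members were higher without overlap (5.21%, against 6.47% of all genes) and 2, Atp5g2 and Ndufb7, were lower (2.08%, against 6.18%).

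Set against the mean of both fertile genotypes, no member was called, where 0.00492% of all genes were, and 4 members had an unadjusted p under 0.05, all higher in deficient libraries, against 4.31% of all genes (1.98% higher). DESeq2 and limma also called none. These 4 were Atp5g1 (log2 fold change 0.34, SE 0.13), Ndufs4 (0.24, SE 0.10), Ndufb5 (0.22, SE 0.10) and Atp5l (0.24, SE 0.11), with edgeR adjusted p = 0.904 for each. The fold change was above 0 in 82 of 96 members (median 0.11) and in 48.4% of all genes. On the TPM scale it was above 0 in 62 of 96 members, with the share of all genes not computed. Ndufb5, of the membrane arm of complex I, was at 163, 176, 154 and 151 CPM in the deficient, 134, 128, 129 and 133 CPM in the heterozygous and 156 and 137 CPM in the wildtype libraries. Its deficient libraries lay above every heterozygous library but overlapped wildtype replicate 1, and no member separated all deficient from all fertile libraries (0.847% of all genes were higher and 0.546% lower without overlap).

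The fertile genotypes were also compared with each other, using the heterozygous and wildtype libraries of the comparisons above, so the values are not independent of those. In heterozygous against wildtype libraries 64 of 96 members were below 0, at a median log2 fold change of -0.078, while all genes had 52.6% above 0 and a median of 0.023. No member was called by edgeR, DESeq2 or limma (0.00492% of all genes in edgeR), and 4 had an unadjusted p under 0.05, all of complex V and all lower in heterozygous libraries, against 8.3% of all genes (2.1% lower). The sign of the median depended on the wildtype pair: it was 0.026 without wildtype replicate 1 and -0.21 without wildtype replicate 2. On the TPM scale 54 of 96 members were above 0, at a median of 0.038, and with upper quartile scaling 17 of 96. Shares of all genes above 0 were not computed in these settings.

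Atp5g2, on chromosome 15 (chr15:102662864-102672352, minus strand), had the smallest p of these. It was at 205, 213, 201 and 166 CPM in the deficient, 207, 167, 125 and 159 CPM in the heterozygous and 261 and 231 CPM in the wildtype libraries. Both wildtype libraries were above every other library, and the log2 fold change of heterozygous over wildtype libraries was -0.58 (SE 0.19, edgeR adjusted p = 0.318). Atp5o, which encodes the OSCP subunit that joins the catalytic head to the stator, was at 139, 147, 142 and 143 CPM in the deficient, 127, 95.3, 113 and 92.8 CPM in the heterozygous and 155 and 128 CPM in the wildtype libraries. Heterozygous replicate 1 was just below wildtype replicate 2 (log2 fold change -0.40, SE 0.15, edgeR adjusted p = 0.451). Atp5c1 differed by -0.38 (SE 0.16, edgeR adjusted p = 0.526), with heterozygous replicate 1 above wildtype replicate 2. In all, 10 members were lower in heterozygous libraries without overlap (10.4%, against 6.64% of all genes) and none was higher (9.18% of all genes).

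In the main edgeR fits, members were called for meiotic stage but in no genotype comparison. In a model with genotype and stage score, 18 of 96 members passed at an edgeR adjusted p under 0.05 (18.8%, against 24.6% of all tested genes). Of these 11 rose with the score (11.5%, against 12.8% of all genes) and 7 fell (7.29%, against 11.8%), so the members were called at a rate no higher than that of genes in general. The median slope was 0.026 log2 units per unit of score, against 0.00041 over all genes. Complex I had 6 that rose and 3 that fell, complex II 2 that rose, complex III 1 that fell, complex IV 2 that rose and 3 that fell, and complex V 1 that rose. With scaling by library totals 15 of 20 called members rose, where 24.2% of all genes were called in either direction. On the TPM scale with a pseudocount of 1, 13 of 15 called members rose, where 7.48% of all genes were called. The shares of all genes that rose were not computed in these settings. Without heterozygous replicate 1, 1 member was called, Cox8c, and 3.21% of all genes were. Without that library and deficient replicate 3, a setting chosen after seeing the data, no member was called and no gene was (0%). Without the 3 libraries low in Gm23935, 25 members were called, where 34% of all genes were, and the median slope was -0.00021.

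**Figure D4:**
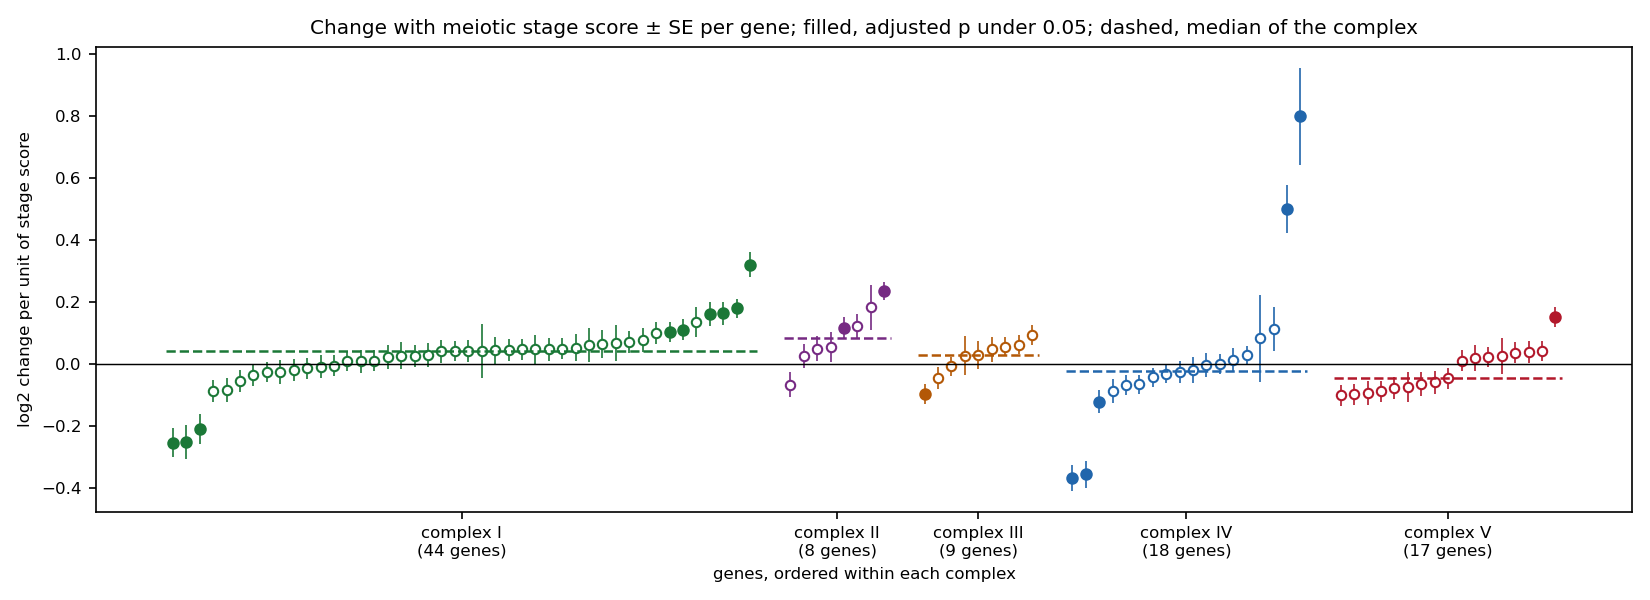
Slope of each tested member on the stage score with its SE, in log2 units per unit of score and ordered within complexes; filled points passed at an adjusted p under 0.05. Filled points lie on both sides of 0, from Cox8a at -0.37 to Cox4i2 at 0.80.

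The RefSeq promoter table (GRCm38.p6) held entries for 78 of the 98 member symbols, and the 250 bases before each start were searched on both strands for motifs of factors known to act at respiratory chain genes. The ETS core CCGGAAG (bound by GABP) was found at 16 of 78 members (20.5%) and at 10.5% of 16522 protein-coding genes. The NRF1 core GCGCATGCG was found at 7 (8.97%, against 2.30%), and AAGATGGCG (YY1) at 1 (1.28%, against 0.878%). GGGCGG (GC box) was found at 42.3% against 47.5%, CCAAT at 43.6% against 39.2%, and TATAAA at 7.69% against 13.3%. These are letter matches in a fixed window, not sites shown to be bound.

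Promoters of members with large slopes are shown 5′ to 3′ on the gene's strand, 3 of genes that fell and 2 of genes that rose, with letters that match any of these motifs in capitals. Cox8a is at chr19:7217617-7217866 (minus strand), Cox7b at chrX:106015450-106015699 (plus), Ndufaf4 at chr4:24897833-24898082 (plus), Ndufa1 at chrX:37191239-37191488 (minus) and Ndufv2 at chr17:66101560-66101809 (minus).
Cox8a: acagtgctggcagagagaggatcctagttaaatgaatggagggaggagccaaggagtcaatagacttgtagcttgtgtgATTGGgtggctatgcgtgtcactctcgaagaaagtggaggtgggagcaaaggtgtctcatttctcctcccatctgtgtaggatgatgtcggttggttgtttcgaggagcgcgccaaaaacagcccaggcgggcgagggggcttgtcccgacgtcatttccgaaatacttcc
Cox7b: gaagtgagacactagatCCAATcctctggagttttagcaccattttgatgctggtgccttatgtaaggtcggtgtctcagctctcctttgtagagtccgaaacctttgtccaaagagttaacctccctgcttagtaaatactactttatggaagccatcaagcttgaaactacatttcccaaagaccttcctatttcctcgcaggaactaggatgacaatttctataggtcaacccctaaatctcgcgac
Ndufaf4: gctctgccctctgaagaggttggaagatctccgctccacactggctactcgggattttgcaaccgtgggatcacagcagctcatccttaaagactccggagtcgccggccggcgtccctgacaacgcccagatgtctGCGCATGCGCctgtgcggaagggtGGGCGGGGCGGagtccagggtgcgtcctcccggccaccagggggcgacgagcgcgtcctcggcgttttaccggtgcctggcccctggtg
Ndufa1: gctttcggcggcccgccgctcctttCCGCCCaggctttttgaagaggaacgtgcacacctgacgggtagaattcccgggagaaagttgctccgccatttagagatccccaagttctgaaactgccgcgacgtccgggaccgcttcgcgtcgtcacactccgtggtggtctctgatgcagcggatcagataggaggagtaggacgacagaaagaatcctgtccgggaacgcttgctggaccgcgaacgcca
Ndufv2: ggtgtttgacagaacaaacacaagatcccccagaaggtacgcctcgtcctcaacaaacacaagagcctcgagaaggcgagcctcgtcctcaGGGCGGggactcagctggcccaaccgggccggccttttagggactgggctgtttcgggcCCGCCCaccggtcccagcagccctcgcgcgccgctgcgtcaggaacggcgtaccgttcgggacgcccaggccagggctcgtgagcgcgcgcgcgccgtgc
The capitals mark CCAAT, read on the opposite strand in Cox8a, the NRF1 core, present on both strands, and overlapping GC boxes in Ndufaf4, and GC boxes in Ndufa1 and Ndufv2. GC boxes were thus in both of the genes that rose and also in Ndufaf4, which fell.

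Cox8a and Cox7b, for small subunits of complex IV, fell most. Cox8a, on chromosome 19 (chr19:7215153-7217616, minus strand), was at 194, 160.2, 277 and 194 CPM in the deficient, 264, 88.7, 92.3 and 108 CPM in the heterozygous and 234 and 158 CPM in the wildtype libraries. Deficient replicate 3 and heterozygous replicate 1, the libraries lowest in score, were highest, and heterozygous replicates 2 to 4, the libraries highest in score, were lowest. The slope was -0.37 (SE 0.041, edgeR adjusted p = 0.000212). Cox7b, on the X chromosome (chrX:106015700-106022450, plus strand), was at 256, 196, 352 and 245 CPM in the deficient, 351, 114, 152 and 144 CPM in the heterozygous and 286 and 186 CPM in the wildtype libraries. The same libraries stood at both ends, with a slope of -0.35 (SE 0.044, edgeR adjusted p = 0.000342).

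Cox8c, the testis form of Cox8a, and Cox4i2, the form of Cox4i1 known from lung, both rose. Cox8c was at 3.24, 6.19, 1.64 and 2.49 CPM in the deficient, 1.19, 4.08, 2.91 and 3.48 CPM in the heterozygous and 3.40 and 3.34 CPM in the wildtype libraries, with a slope of 0.50 (SE 0.077, edgeR adjusted p = 0.00117). Its share of the TPM summed over Cox8a, Cox8b and Cox8c ran from 0.415% in heterozygous replicate 1 to 4.85% in heterozygous replicate 2, so Cox8a was the main form in every library. Cox4i2 stayed under 1 CPM in every library (slope 0.80, SE 0.16), and Cox7a1 fell slightly (-0.12, SE 0.038). Most complex IV genes moved less: the 9 accessory subunit genes other than Cox8a and Cox7b were not called.

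**Figure D5:**
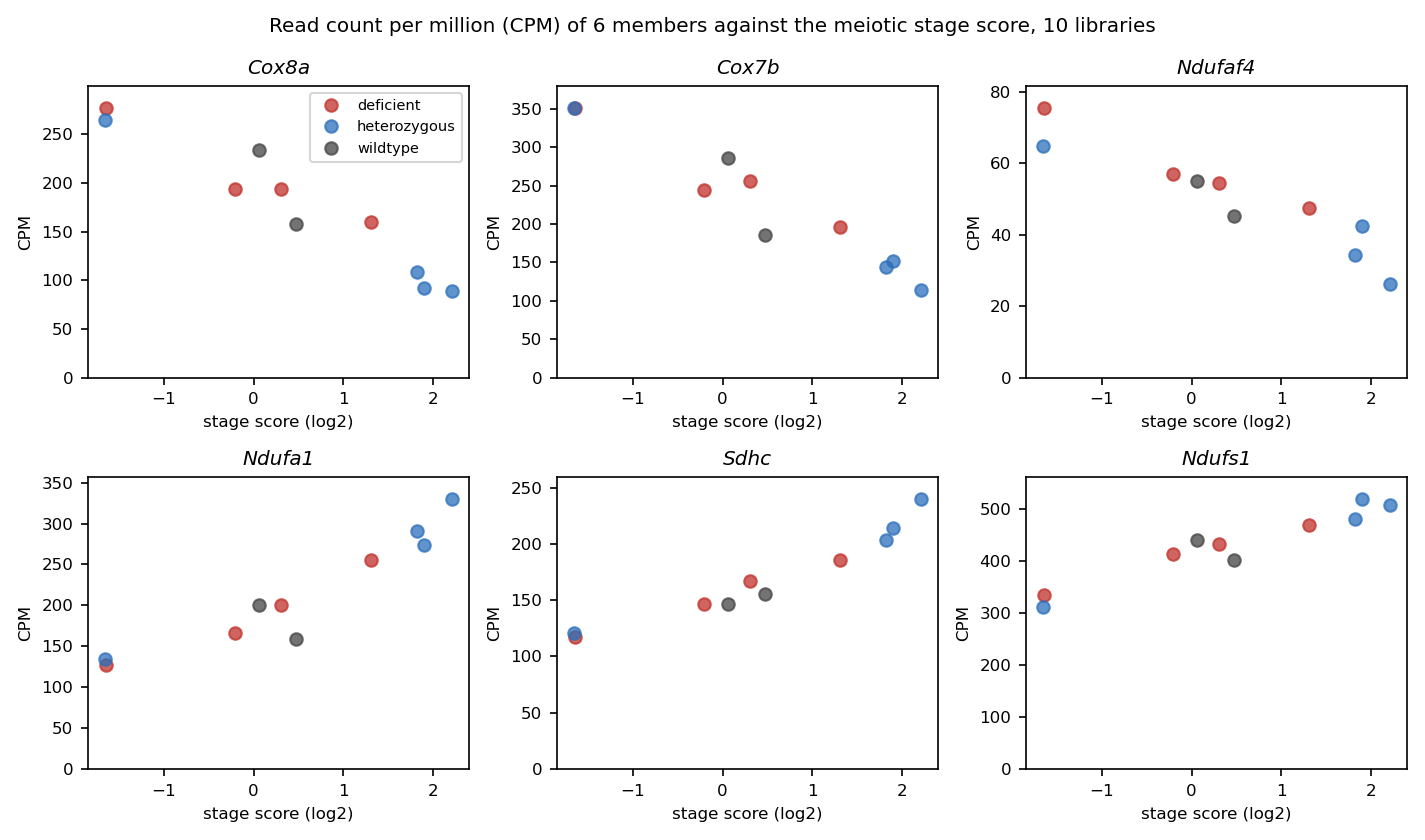
CPM of 6 members against the stage score in the 10 libraries, coloured by genotype. Cox8a, Cox7b and Ndufaf4 are highest in the 2 libraries with the lowest scores (-1.65 and -1.64) and lowest in heterozygous replicates 2 to 4, and Ndufa1, Sdhc and Ndufs1 run the other way.

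Among the called genes that rose were 3 of the 7 core subunit genes of complex I and 1 of the 4 of complex II, Sdhc. Ndufa1, an X-linked gene (chrX:37187588-37191163, minus strand) for an accessory subunit needed for assembly of complex I, was at 199.97, 255, 127 and 166 CPM in the deficient, 134, 329.9, 274 and 290.5 CPM in the heterozygous and 199.9 and 159 CPM in the wildtype libraries. It was lowest in the 2 libraries of lowest score and highest in heterozygous replicates 2 to 4, with a slope of 0.32 (SE 0.041, edgeR adjusted p = 0.000434). Ndufb11, the remaining X-linked member beside Ndufa1 and Cox7b, had a slope of 0.027 (SE 0.035) that did not pass. Sdhc (chr1:171127165-171150603, minus strand), a membrane anchor of complex II that helps bind ubiquinone, was at 167, 186, 117 and 146 CPM in the deficient, 121, 239.7, 214 and 204 CPM in the heterozygous and 147 and 155 CPM in the wildtype libraries. It followed the same order of libraries (slope 0.24, SE 0.030, edgeR adjusted p = 0.000368).

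Ndufs1, the largest subunit of complex I and a carrier of iron-sulfur clusters, was at 432, 469, 334 and 414 CPM in the deficient, 312, 507, 519 and 480.3 CPM in the heterozygous and 439 and 401 CPM in the wildtype libraries (slope 0.18, SE 0.030, edgeR adjusted p = 0.00202). Heterozygous replicates 2 to 4 and deficient replicate 2 were highest. Its exons overlap Eef1b2 on the opposite strand, and whether the counting used strand was not given in the sources used here. Ndufv2, of the NADH-oxidising module, rose at 0.16 (SE 0.037) and the accessory gene Ndufs5 at 0.10 (SE 0.033). Atp5f1, for a stator subunit, was the called member of complex V (0.15, SE 0.033), and Uqcrfs1 that of complex III (-0.10, SE 0.031).

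Of 12 assembly factors 5 were called and of 84 subunit genes 13, where 24.6% of all tested genes were. Ndufaf4 (chr4:24898083-24905001, plus strand) was at 54.3, 47.5, 75.6 and 57.1 CPM in the deficient, 64.7, 26.3, 42.5 and 34.3 CPM in the heterozygous and 55.0 and 45.2 CPM in the wildtype libraries. The 2 libraries of lowest score were highest (slope -0.25, SE 0.047, edgeR adjusted p = 0.00333). Ndufaf6 fell at -0.25 (SE 0.055) and Ndufaf3 at -0.21 (SE 0.049), the latter from 13.9 CPM in deficient replicate 3 to 6.42 CPM in heterozygous replicate 2. Exons of Ndufaf3 overlap those of Impdh2 on the opposite strand. Ndufaf8 and Sdhaf2, which acts on the flavin of Sdha, rose at 0.16 (SE 0.038) and 0.12 (SE 0.036).

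The 4 endothelial markers moved with the score, summing to 381 CPM in heterozygous replicate 1, the library of lowest score, and to 65.4 CPM in heterozygous replicate 2, that of highest score. Nearly all of this was Pecam1 (64.8 to 380.4 CPM), which early germ cells also express, and its part in the slopes was not tested. Cdh5, Kdr and Tie1 stayed at or under 1.05 CPM in every library.

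Other genes of mitochondrial energy metabolism were read from lists. No listed gene was called in any genotype comparison. In deficient against heterozygous libraries 11 of 16 genes of pyruvate dehydrogenase and the citric acid cycle were above 0 (median 0.19), as were 16 of 21 carriers, transporters and ubiquinone synthesis genes (median 0.15), 23 of 38 further assembly factors (median 0.054), 10 of 14 regulators (median 0.068) and 8 of 13 subunits encoded by mitochondrial DNA (median 0.027). The last of these rested on heterozygous replicate 3, which stood apart in mitochondrial transcripts: mt-Nd1 was at 898 CPM there and at 1493 to 2289 CPM in the other libraries, and mt-Co1 at 1496 against 3705 to 5631 CPM. Without it 2 of the 13 were above 0, at a median of -0.20, and without deficient replicate 3 also 2 of 13 were, at a median of -0.067.

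With the stage score 24.6% of all tested genes were called (12.8% rising and 11.8% falling), and 0% without the 2 libraries lowest in score. The called shares of the carrier, further assembly factor and citric acid cycle lists given here lay near 24.6%. Of 14 regulators of mitochondrial biogenesis and DNA expression 5 fell and none rose. They were Tfam, which packages mitochondrial DNA (slope -0.25, SE 0.038), Pprc1 (-0.23), Esrra (-0.23), the accessory polymerase subunit Polg2 (-0.22) and the polymerase Polg (-0.18). Of 21 carrier and ubiquinone genes 4 fell and 2 rose: the somatic adenine nucleotide carriers Slc25a4 and Slc25a5 fell at -0.25 (SE 0.048) and -0.28 (SE 0.056), while the germ cell form Slc25a31 rose at 0.46 (SE 0.036, edgeR adjusted p = 3.40e-05). The outer membrane channel Vdac1 fell at -0.41 (SE 0.040). Of 38 further assembly factors 5 rose, led by Ecsit (0.44, SE 0.045), and 4 fell, and of 16 citric acid cycle genes Cs rose (0.13) while Mdh2, Pdha1 and Suclg1 fell (-0.19, -0.19 and -0.16). All 13 subunits encoded by mitochondrial DNA had slopes below 0 (median -0.14), and none of them passed the test, where 24.6% of all genes did. Without heterozygous replicate 3 the 13 slopes were below 0 at a median of -0.084, and without all 3 libraries low in Gm23935 the median was -0.10 and 4 passed. Without heterozygous replicate 1 the slopes of 10 were below 0 (median -0.094), and without that library and deficient replicate 3, the pair lowest in score, 12 were above 0 (median 0.13).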

How the data were processed

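The authors deposited gene counts made with featureCounts (Subread 1.6.2) from HISAT2 2.1.0 alignments to GRCm38, and TPM values from StringTie 1.3.3b, per the submitters' processing notes; the sources used here give neither the strand setting nor the annotation release. Counts were used as deposited. All 55536 genes matched GENCODE M21 identifiers, which gave positions and gene types. edgeR 4.0.16 in R 4.3.3 kept 20317 genes (filterByExpr by genotype), scaled by TMM, and fitted 1 quasi-likelihood model with 3 genotype groups, or genotype and the stage score, over 10 libraries. Benjamini-Hochberg adjustment ran over all tested genes and calls used 0.05. SE derives from the F statistic. CPM values carry the TMM scaling, and log2 CPM used a prior count of 2. DESeq2 1.42.0 and limma 3.58.1 served as alternatives, TPM being tested as log2(TPM + pseudocount) with pseudocounts of 0.1 and 1.

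Members, lists and tests were chosen with earlier results of these data known. Genes described singly were, per complex, the 2 highest and the lowest by median TPM, the 3 smallest p-values per genotype comparison, up to 12 called members with the largest stage slope, isoform families and catalytic subunits. Others (among them Ndufb11, Ndufs5, Atp5f1, Sdhaf2, Atp5l, Cox5b, Atp5j and Atp5j2) were chosen after their values were seen. Pseudogene copies are blastn 2.17.0 matches of at least 90% identity over at least 80% of the coding sequence, found for 31 of 99 members. A further gene within this rule is left out of the text.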

Additional observations from a re-analysis of the deposited data

Results flagged for a closer look

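A library far from the other 3 of its group was found in 7 of the 80 groups of 4 searched over described members, complex means and the stage score. Chance gives about 1 in 20 for independent groups that were not selected. The groups here share libraries and many of the members were picked from these data, so that rate does not apply to them. Heterozygous replicate 1 was the outlying library in 4 of the 7. Its stage score was -1.65 against 1.82 to 2.20 in the others, its Cox7b level 351 CPM against 114 to 152 CPM, its Cox8a level 264 CPM against 88.7 to 108 CPM, and its Ndufs4 level 166 CPM against 136 to 139.7 CPM. Heterozygous replicate 3 was high for Ndufb10, at 86.2 CPM against 56.8 to 57.9 CPM. Deficient replicate 2 was high for Sdhb, at 360.2 CPM against 289 to 296 CPM, and for the complex III mean, at 8.34 log2 CPM against 8.19 to 8.21.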

How the results depend on the processing

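Of 260 counts and medians recomputed under alternatives, 249 were labelled the same. A count kept this label under a moderate change, such as from 18 to 25 members called for stage, but not on moving to or from 0. A median kept it when it shifted by no more than 0.0953, so its sign could change. That limit is the pooled SD, within genotypes, of the members' mean log2 CPM. In deficient against heterozygous libraries the count of called members was 1 with DESeq2 and 0 to 7 when leaving out 1 library. The median log2 fold change against wildtype ran from -0.022 to 0.17 when leaving out 1 library, and that of heterozygous against wildtype from -0.21 to 0.026. The latter was 0.038 on TPM with a pseudocount of 0.1, 0.038 with 1, and 0.042 with 1 over genes of at least 1 TPM. Members called for stage numbered 18, but 6 with a replicate block, 1 to 21 when leaving out 1 library, and 0 without the 2 libraries lowest in stage score. The causes were not tested.

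Replicate numbers were not used to pair the samples in the main fit. With the genotype mean of each gene subtracted from log2 CPM, same-numbered libraries correlated at -0.42 to 0.38. These correlations cannot decide on pairing, because the deviations also hold differences in stage score and those of the 2 wildtype libraries mirror each other. Nor can the genotype calls decide on it, because no member was called with or without the replicate block. Of the 18 members called for stage, 6 were still called under the block. Of 631 values for described members, 588 kept their status as called or not called, 39 lost a call and 4 gained one. All described members were uncalled in the main fit of the genotype comparisons. There, keeping the status means staying uncalled, and only the stage values began as calls. With 2 wildtype libraries, differences from wildtype had little precision, and leaving out 1 leaves a lone sample that is assumed to vary like the other groups. Counts below about 1 CPM, as for Cox4i2, rest on few reads. Reads of 18 members with copies holding at least 1% of their reads may be split between gene and copy.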
